A study of Rattus norvegicus with 12 samples.

Results

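The miRNAs described here are miR-126a, miR-143 and miR-145 of the rat, each with both arms of its hairpin. They are 6 of the 753 mature miRNAs listed for every library. The arms were taken by stem name, but with earlier results of these data known. All 6 were among the 420 retained for testing. Small RNA was sequenced from the right hippocampus (per the labels, while the study's text calls the region dorsal hippocampus) of adult male Sprague Dawley rats with no genotype given. The 8 ethanol rats (numbers 3, 4, 7, 8, 15, 16, 23 and 24) received an injection of ethanol at 4 g/kg at P70 to P80, and the 4 vehicle rats (9, 10, 19 and 20) an injection of vehicle, called saline in the study's text. All were euthanized 3 h later, so every value belongs to 1 time point, 1 sex and 1 dose. Each library came from 1 rat, and the study states 8 rats per group, of which 4 vehicle rats are analysed here. Rats are named below by group and number.

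Micro-RNAs guide the silencing complex to target mRNAs through their seed, bases 2 to 8 from the 5′ end. A hairpin precursor yields a 5p and a 3p arm, of which usually one is loaded and kept while the other is degraded. miR-126 is the best known endothelial miRNA: it lies in an intron of Egfl7, a gene of the vessel lining, and is required for vascular integrity and VEGF signaling. miR-143 and miR-145 are made from one primary transcript and mark smooth muscle cells and pericytes, the mural cells around vessels, where they favor the contractile state. In brain tissue these miRNAs are therefore commonly read as vessel-associated, although none is restricted to vessels.

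The 6 mature sequences are shown because the arms differ widely in level, and because a seed decides which mRNAs an arm can pair with. They were taken from RefSeq on the rat assembly GRCr8, matched by mature name for 6 of 6. Capitals mark the seed.
rno-miR-126a-5p: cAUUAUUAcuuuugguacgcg
rno-miR-126a-3p: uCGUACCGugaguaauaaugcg
rno-miR-143-5p: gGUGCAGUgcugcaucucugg
rno-miR-143-3p: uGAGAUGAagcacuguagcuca
rno-miR-145-5p: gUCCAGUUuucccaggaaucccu
rno-miR-145-3p: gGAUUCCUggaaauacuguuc
No 2 of these arms had the same seed, and 0 of the other mature miRNAs in the table of 693 shared a seed with any of them. On GRCr8, miR-126a-5p lies at chr3:29813182-29813202 and miR-126a-3p at chr3:29813219-29813240, plus strand, inside the span of Egfl7. The arms miR-143-3p (chr18:57371373-57371394), miR-143-5p (chr18:57371408-57371428), miR-145-3p (chr18:57369997-57370017) and miR-145-5p (chr18:57370033-57370055) are on the minus strand inside the long non-coding RNA gene Carmn, with 1278 bases between their hairpins. These positions are those of the reference table. The deposited counts carry no coordinates, and the submitters' processing notes name another build, rn5.

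The hairpins of miR-143 and miR-145 show how close together the abundant and the rare arm are made. Capitals mark the 2 mature arms, the 5p arm first.
miR-143 hairpin: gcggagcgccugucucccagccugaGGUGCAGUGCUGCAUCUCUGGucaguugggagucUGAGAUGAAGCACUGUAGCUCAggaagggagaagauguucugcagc
miR-145 hairpin: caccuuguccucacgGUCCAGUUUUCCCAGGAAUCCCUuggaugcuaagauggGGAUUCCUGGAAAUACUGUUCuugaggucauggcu
The 3p arm of the first hairpin and the 5p arm of the second are the abundant ones in these libraries.

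A further entry, miR-126b, is annotated on the strand opposite miR-126a. It is shown to set its sequence beside that of miR-126a-5p, to which 17 consecutive bases are complementary. Capitals again mark the seed.
rno-miR-126b: uACCAAAAguaauaaugugcug
miR-126b was listed at 0 reads in 12 of 12 libraries, which at these depths allows up to 0.610 to 1.53 CPM of the library total (3 counts per library, counting error only), so it was not compared between groups. All other CPM values of single miRNAs below are read counts scaled to a common library size with TMM factors.

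Library totals ranged from 2243413 to 4917928 counts in vehicle rats and from 1960704 to 3598771 in ethanol rats. In all 66 pairs of libraries the counts were farther apart than sampling noise allows, with a chi-square of 30.9 or more for each degree of freedom, and each library was counted as 1 rat. The neuronal miR-9a-5p was plentiful in each library, while the choroid plexus miR-204-5p ran from 13662 to 56439 CPM, a wide range that both groups shared in part. Which libraries were sequenced together is not given in the labels, and a difference between such sets was not tested.

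Levels differed widely between the 6 arms. miR-143-3p took 4.39% of the counts of a library at the median (range 2.94% to 6.67%) and ranked between 5 and 7 among all miRNAs of each library. miR-126a-5p ranked 53 to 64, miR-126a-3p 101 to 115 and miR-145-5p 128 to 171. The minor arms miR-145-3p and miR-143-5p ranked 242 to 346 and 310 to 379. The 6 together took 3.17% to 6.99% of each library's counts. Mature miRNAs have nearly one length (21 to 23 bases here), so CPM can be compared between them without length scaling, but ligation favors some ends over others, and the order of levels between miRNAs includes that bias.

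**Figure D1:**
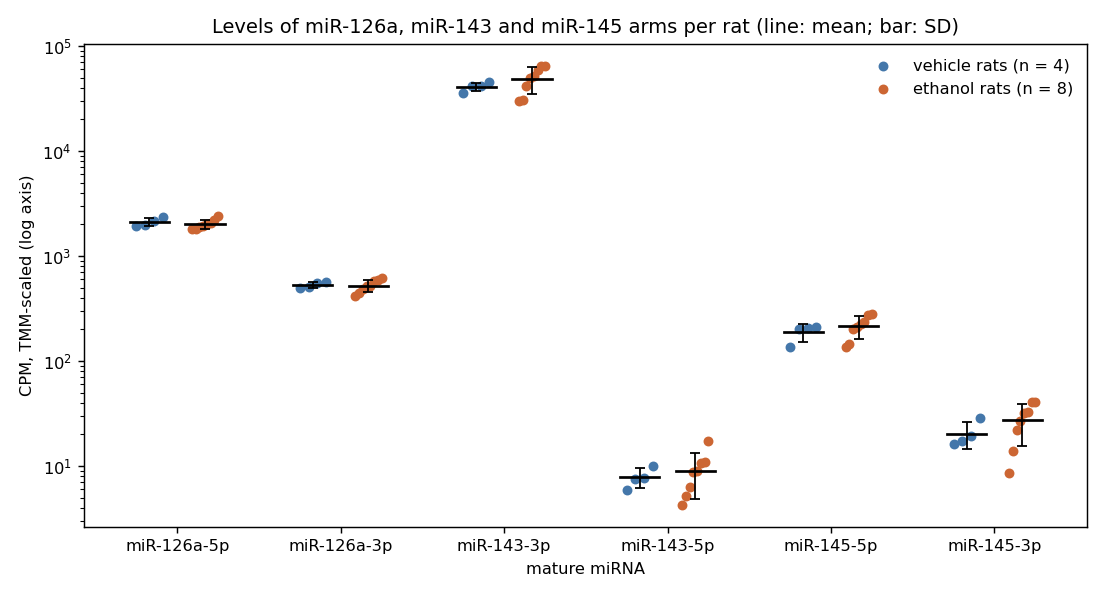
Level of each arm in CPM (TMM-scaled, log axis) for the 4 vehicle and the 8 ethanol rats. Each point is a rat, horizontal lines are group means and bars are SD (n = 4 and n = 8). miR-143-3p runs from 30261 to 64698 and miR-143-5p from 4.27 to 17.4, and the 2 groups overlap for all 6 arms.

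The endothelial miR-126a was read mostly as its 5p arm. Expression of miR-126a-5p was 1980.3, 1944, 2342 and 2141 CPM in vehicle rats 9, 10, 19 and 20, and ran from 1791 to 2386 CPM with a median of 1984 in the 8 ethanol rats. The lowest value belonged to ethanol rat 23 and the highest to ethanol rat 4, and 4 of 8 ethanol rats lay within the vehicle range. The vehicle mean was 2102 ± 181 (SD, n = 4) and the ethanol mean 2012 ± 204 (SD, n = 8). edgeR placed the log2 fold change at -0.06 (SE 0.09), inside a 95% interval from -0.25 to 0.12 that is the narrowest among the 6 arms and spans folds of 0.843 to 1.09. It was -0.0074 without vehicle rat 19, -0.017 without vehicle rat 20, -0.099 without vehicle rat 10 and -0.10 without ethanol rat 4. The two-sided exact permutation test, here and below on the difference in mean log2 CPM, gave p = 0.453.

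Expression of miR-126a-3p, the arm usually named as the endothelial guide that targets inhibitors of VEGF signaling such as Spred1, was 508, 492, 571 and 556 CPM in vehicle rats 9, 10, 19 and 20. In ethanol rats it ran from 416 (rat 23) to 617 (rat 3), with a median of 515. The ethanol rats spread to both sides, 3 above and 3 below every vehicle rat. The vehicle mean was 532 ± 37.6 (SD, n = 4) and the ethanol mean 519 ± 69.7 (SD, n = 8). The edgeR log2 fold change was -0.03 (SE 0.11; 95% interval -0.26 to 0.19; exact permutation p = 0.699). Its sign changed when vehicle rat 19, vehicle rat 20 or ethanol rat 23 was left out.

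The arms of miR-126a kept a narrow ratio. There were between 3.55 and 4.30 reads of miR-126a-5p for each read of miR-126a-3p, with a median of 3.92, and the 5p arm was higher in 12 of 12 rats. The log2 ratio of 3p to 5p was -1.98 ± 0.04 (SD, n = 4) in vehicle and -1.96 ± 0.10 (SD, n = 8) in ethanol rats, a difference of 0.02 (SE 0.05; exact 95% interval -0.10 to 0.15; exact permutation p = 0.681; adjusted p = 0.733 over the 6 ratios tested here).

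Among the mural members, miR-143-3p was the most abundant arm of this group in every library. Its expression was 36063, 41961, 45259 and 41282 CPM in vehicle rats 9, 10, 19 and 20. In ethanol rats it ran from 30261 (rat 23) to 64698 (rat 4), with a median of 50722. Of the 8 ethanol rats, 5 (3, 4, 7, 8 and 24) lay above every vehicle rat, 2 (15 and 23) lay below every vehicle rat, and 1 lay inside the vehicle range. The vehicle mean was 41141 ± 3805 (SD, n = 4) and the ethanol mean 49009 ± 13680.3 (SD, n = 8). The edgeR log2 fold change was 0.25 (SE 0.20; 95% interval -0.18 to 0.69, or folds of 0.881 to 1.61; exact permutation p = 0.386), and 0.097 with the library total as a covariate. The coefficient of variation was 9.25% in vehicle and 27.9% in ethanol rats. This difference in spread was not tested, and 4 rats give a coarse estimate of it. Counts of miR-143-3p were fractional in 7 of 12 libraries, and how reads were divided between entries is not stated, while the counts of the other 5 arms were whole in at least 11.

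miR-145-5p, the arm known for repressing Klf4 and related factors that hold smooth muscle in the proliferative state, was far less abundant than its cluster partner. Expression was 135, 208, 209 and 202 CPM in vehicle rats 9, 10, 19 and 20, and from 135 (rat 23) to 281 (rat 4) with a median of 219 in ethanol rats. Vehicle rat 9 and ethanol rats 15 and 23 lay at 135 to 146 and all other rats at 202 or above, so the low libraries came from both groups. The vehicle mean was 188 ± 35.9 (SD, n = 4) and the ethanol mean 214 ± 53.5 (SD, n = 8). The edgeR log2 fold change was 0.19 (SE 0.20; 95% interval -0.25 to 0.62; exact permutation p = 0.455), and it was 0.062 without vehicle rat 9, 0.12 without ethanol rat 4 and 0.072 with the library total as a covariate.

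The minor arms were read few times, miR-143-5p 13 to 48 times and miR-145-3p 26 to 96 times per library. Expression of miR-143-5p was 7.59, 5.96, 10.1 and 7.66 CPM in vehicle rats 9, 10, 19 and 20 and from 4.27 to 17.4 in ethanol rats (median 8.86), with an edgeR log2 fold change of 0.16 (SE 0.32) and a 95% interval of -0.52 to 0.84 (exact permutation p = 0.723). Expression of miR-145-3p was 19.2, 28.9, 17.2 and 16.2 CPM in the same vehicle rats and from 8.53 to 40.8 in ethanol rats (median 29.5), with an edgeR log2 fold change of 0.42 (SE 0.35) and a 95% interval of -0.34 to 1.18 (exact permutation p = 0.499). For both the lowest value was that of ethanol rat 23 and the highest that of ethanol rat 4. Counting alone gives a SD of 0.32 and 0.16 on the log2 scale at their median counts, against within-group SDs of 0.53 and 0.67 over all rats. The fold change of miR-143-5p was -0.038 on the log2 scale without ethanol rat 4, and that of miR-145-3p was -0.035 with the library total as a covariate.

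None of the 6 arms passed edgeR's quasi-likelihood test fitted over all 420 retained miRNAs: 0 of 6 had an unadjusted p under 0.05, against 4.05% of all retained miRNAs (17 of 420, with 1.67% higher and 2.38% lower after ethanol), and their adjusted p were 0.971 to 0.997 (Benjamini-Hochberg over 420). Over all 420 miRNAs, 0% passed an adjusted 0.05 by the same edgeR test and by limma-trend, and DESeq2's Wald test passed 1 (miR-133b-3p), which is not one of the 6. At an unadjusted p under 0.05 these tools passed 17, 16 and 16. The 4 mural arms had higher and the 2 endothelial arms lower means after ethanol, where 54% of all retained miRNAs were lower. The arms of a stem share a hairpin, and miR-143 and miR-145 a transcript, so these are not 6 separate outcomes. For miR-126a-3p, miR-143-5p and miR-145-3p the sign changed in at least 1 alternative fit. The median log2 fold change was 0.17 over the 6 and -0.02 over the 420. Vehicle and ethanol rats were fully apart for 0 of the 6 arms and for 0.238% of all retained miRNAs. In bulk tissue, fewer vessel cells and less of a miRNA per cell cannot be told apart.

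Whether ethanol moved the endothelial miRNA differently from the mural miRNAs was tested on ratios within each library, which do not depend on how libraries are scaled. In these ratios miR-126a-3p stood for the endothelial miRNA, and the more abundant miR-126a-5p was not set against a mural arm. There were 70.9 to 85.3 reads of miR-143-3p per read of miR-126a-3p in vehicle rats and 69.6 to 110 in ethanol rats, with medians of 76.8 and 99.4. Of the 8 ethanol rats, 5 lay above every vehicle rat. The log2 ratio of miR-126a-3p to miR-143-3p was lower after ethanol by a difference of -0.24 (SE 0.14; exact 95% interval -0.54 to 0.08; exact permutation p = 0.117; adjusted p = 0.545). The unadjusted value was p = 0.0485 by the exact permutation test when ethanol rat 15 was left out. This rat had the fewest reads of miR-143-3p per read of miR-126a-3p (69.6). With any other rat left out, the same test gave p from 0.0576 to 0.224.

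Measured against miR-145-5p, miR-126a-3p was 2.37 to 3.77 times as abundant in vehicle and 2.08 to 3.08 times in ethanol rats. The difference in the log2 ratio was -0.21 (SE 0.14; exact 95% interval -0.53 to 0.11; exact permutation p = 0.182; adjusted p = 0.545), and without vehicle rat 9 it was -0.077. The 2 mural miRNAs were also set against each other. There were 202 to 267 reads of miR-143-3p per read of miR-145-5p in vehicle and 196 to 252 in ethanol rats, for arms that come from one primary transcript. That ratio differed by 0.04 on the log2 scale (SE 0.09; exact 95% interval -0.16 to 0.22; exact permutation p = 0.677; adjusted p = 0.733).

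The arm ratios of the mural hairpins each involve a rare arm. There were 3664 to 7080 reads of miR-143-3p per read of miR-143-5p (median 5343), and 6.20 to 16.2 reads of miR-145-5p per read of miR-145-3p (median 7.21). For the latter, ethanol rats 23 and 24 had the highest values and vehicle rats 19 and 20 the next. The SD of the log2 ratio of miR-143 was 0.28 in vehicle and 0.31 in ethanol rats, no larger than the 0.32 that counting alone gives for miR-143-5p. Differences between groups were 0.09 for the 3p to 5p ratio of miR-143 and 0.13 for that of miR-145 on the log2 scale, where the SE was 0.18 and 0.33 and the exact permutation test gave p = 0.628 and 0.733 (both adjusted p = 0.733). Across the 6 ratios the adjusted p was at least 0.545.

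**Figure D2:**
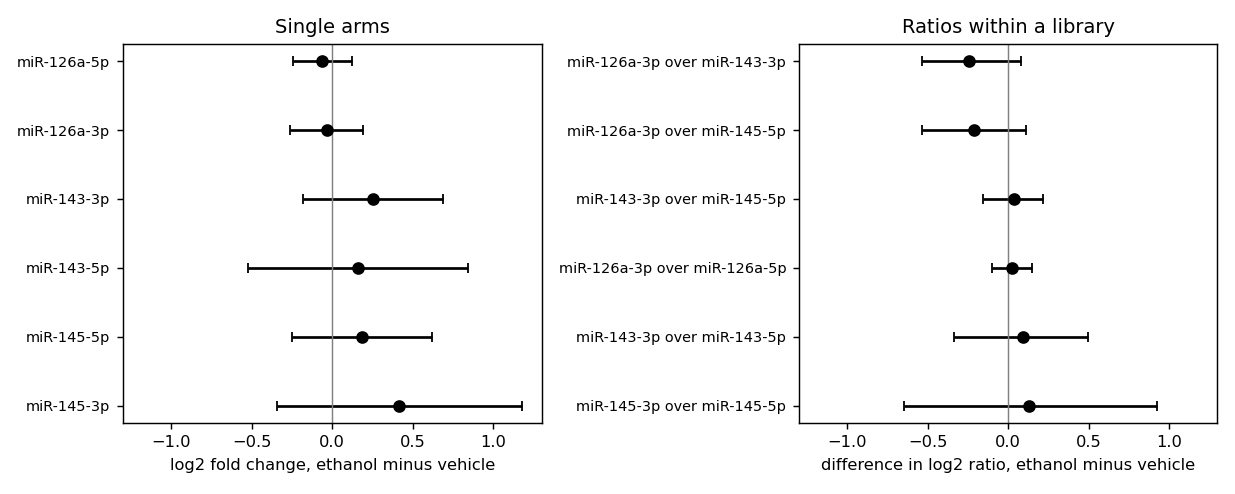
Ethanol minus vehicle on the log2 scale for the 6 arms (left, edgeR estimate) and for the 6 ratios within a library (right, difference in means). Points are estimates and bars are 95% intervals, from edgeR's quasi-likelihood fit on the left and from the exact permutation test on the right. Those on the right assume a shift between groups of equal spread. For miR-126a-3p over miR-143-3p the SD of the log2 ratio was 0.12 in vehicle and 0.26 in ethanol rats, so that interval is approximate. All 12 intervals include 0. On the left the narrowest is -0.25 to 0.12 for miR-126a-5p and the widest -0.34 to 1.18 for miR-145-3p. On the right the narrowest is -0.10 to 0.15 for miR-126a-3p over miR-126a-5p. The widest there is -0.65 to 0.93 for miR-145-3p over miR-145-5p.

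Spread between rats of one group is given for the 4 abundant arms. The within-group SD of log2 CPM, pooled over vehicle and ethanol rats, was 0.14 for miR-126a-5p and 0.17 for miR-126a-3p, at percentiles 16.7 and 31.2 of the 420 retained miRNAs, whose median was 0.24. It was 0.37 for miR-143-3p and 0.36 for miR-145-5p, at percentiles 73.1 and 72.6. Within vehicle rats the coefficient of variation of CPM was 8.63%, 7.07%, 9.25% and 19.0% for miR-126a-5p, miR-126a-3p, miR-143-3p and miR-145-5p, and within ethanol rats 10.1%, 13.4%, 27.9% and 24.9%. The pooled gap between miR-126a and miR-143-3p therefore lay mainly in the ethanol rats. At their median counts, counting alone gives SDs of 0.0040 to 0.059 in these 4 arms. Whether the endothelial and mural arms differ in spread was not tested.

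Rats that were high for one arm tended to be high for the others. In ethanol rats 3, 4 and 8 all 6 arms lay above their mean over the 12 libraries, and in vehicle rat 9 and ethanol rats 15 and 23 all 6 lay below it. The 15 pairs of arms all correlated positively in log2 CPM across the 12 libraries, with Pearson's r from 0.38 to 0.93. Of these, 13 had an adjusted permutation p under 0.05 (100000 resamples, adjusted over the 30 relations examined), 10 after group means were removed and 6 without the 2 libraries farthest from the median of the first arm. All points share library totals, and genes measured as shares of a library are not free of each other.

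The closest pair was miR-143-3p with miR-145-5p, which share a transcript: r = 0.93 and rho = 0.92 (permutation p = 1e-05, the smallest that 100000 resamples can give; adjusted p = 0.0003 for r and 0.0015 for rho). Without ethanol rats 3 and 4, the 2 libraries farthest from the median in miR-143-3p, r was 0.89, and with group means removed it was 0.93. As 3 libraries lay apart at low miR-145-5p, r was also taken over the other 9, where it was 0.90 (permutation p = 0.00093; adjusted p = 0.0279). This was the only 1 of the 30 relations with an adjusted p under 0.05 over those 9 libraries. The 9 were chosen after seeing the data, by leaving out low values, which narrows the range and can lower r. Missing the threshold there therefore does not show that another relation is absent.

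The endothelial miR-126a-3p was compared with the mural arms in the same way. Its r was 0.83 with miR-143-3p (rho = 0.74; permutation test, adjusted p = 0.00379 and 0.0263 for r and rho) and 0.80 with miR-145-5p (rho = 0.71; adjusted p = 0.00767 and 0.0302). Within groups these were 0.90 and 0.85. Without ethanol rats 3 and 23 they were 0.70 and 0.64, and the adjusted p rose to 0.0526 and 0.0868 in the permutation test. Over the 9 libraries they were 0.61 and 0.66 (permutation test, adjusted p = 0.24 and 0.214). Both were thus lower, and no longer past the threshold, without vehicle rat 9 and ethanol rats 15 and 23, in a set of fewer libraries. The 2 arms of miR-126a had r = 0.86 over 12 libraries (rho = 0.83; permutation test, adjusted p = 0.002 and 0.00816) and 0.76 over the 9 (adjusted p = 0.121).

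**Figure D3:**
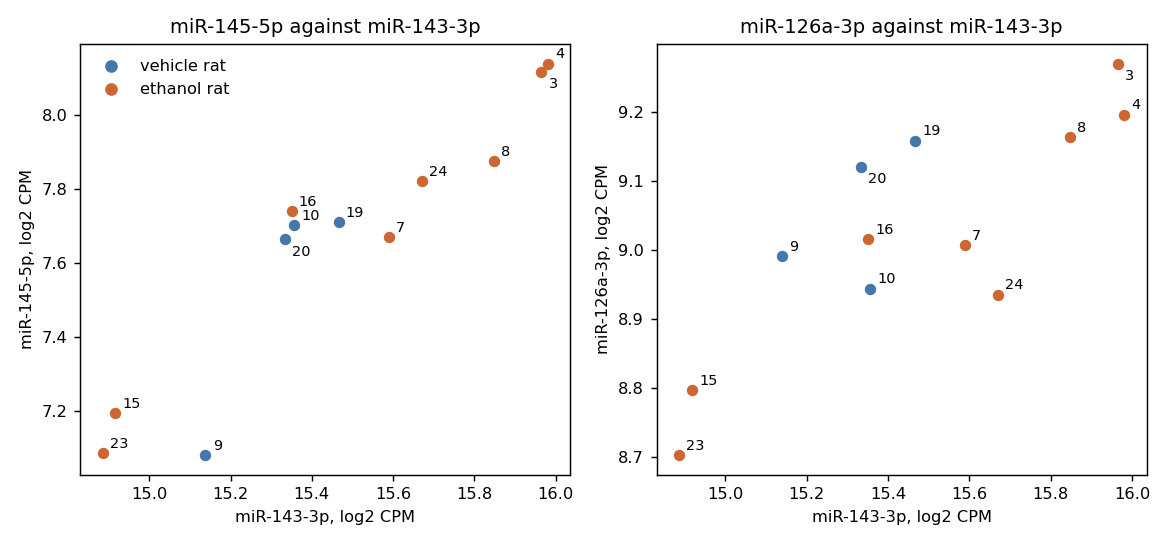
Level of miR-145-5p (left) and miR-126a-3p (right) against miR-143-3p, both in log2 CPM. Each point is a rat, labelled with its number, in blue for vehicle and orange for ethanol. miR-145-5p follows miR-143-3p in both the low and the high libraries (r = 0.93 over 12 and 0.90 over the 9 without the low ones), and for miR-126a-3p r is 0.83 over 12 and 0.61 over the same 9.

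Markers of other tissue parts were set beside these levels. miR-199a-3p, which is rich in fibroblasts and other mesenchyme including the meninges, ran from 207 to 423 CPM and was lowest in ethanol rats 15 and 23 and vehicle rat 9. It correlated with miR-126a-3p, miR-143-3p and miR-145-5p at r = 0.87, 0.86 and 0.85 (rho = 0.90, 0.82 and 0.88; permutation test, adjusted p = 0.00156 for each r and 0.0021, 0.00823 and 0.0031 for the rho). Without ethanol rats 15 and 23 these were 0.82, 0.77 and 0.84. Over the 9 libraries they were 0.84, 0.67 and 0.76 (permutation test, adjusted p = 0.0981, 0.214 and 0.0981), with coefficients close to those over 12 for miR-126a-3p and lower for the other two.

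The red blood cell miR-451-5p ran from 33.0 to 205 CPM, with r = 0.78 to miR-126a-3p, 0.62 to miR-143-3p and 0.65 to miR-145-5p (rho = 0.74, 0.51 and 0.66; permutation test, adjusted p = 0.00981, 0.0488 and 0.0358 for r and 0.0263, 0.133 and 0.0477 for rho). Without ethanol rats 7 and 15, r was 0.84, 0.67 and 0.68. It was 33.0 and 50.5 CPM in ethanol rats 15 and 23, which were low in all 6 arms, but 116 in vehicle rat 9, which was low too. Over the 9 libraries r was 0.56, 0.24 and 0.51, none with an adjusted p under 0.05 in the permutation test. The choroid plexus miR-204-5p had r = 0.34, 0.28 and 0.25 with the same 3 arms (rho = 0.40, 0.22 and 0.28; permutation test, adjusted p of at least 0.34 for r and 0.263 for rho), and 0.78, 0.57 and 0.54 without ethanol rats 3 and 15 (adjusted p = 0.0264, 0.126 and 0.152). The log2 library total had r = -0.15, -0.45 and -0.35 with them (rho = -0.30, -0.51 and -0.38; permutation test, adjusted p of at least 0.198 for r and 0.133 for rho), and -0.64, -0.62 and -0.60 without vehicle rats 19 and 20. The part of these tissues and of depth in the levels of the 6 arms was not tested.

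The muscle miR-133a-3p fell into separate groups of libraries, which limits what a correlation over all 12 can show. Its r was 0.45, -0.07 and -0.02 with miR-126a-3p, miR-143-3p and miR-145-5p, and its rho 0.59, -0.01 and 0.03. In the permutation test the adjusted p was at least 0.199 for r and 0.0746 for rho. Expression of miR-133a-3p was 453, 611, 704 and 462 CPM in vehicle rats 9, 20 and 19 and ethanol rat 16, and at most 102 in the other 8. In those 4 high libraries miR-143-3p was 36063, 41282, 45259 and 41779 CPM. In the other 8 it ran from 30261 to 64698 CPM. Of these 8, ethanol rats 3, 4, 7, 8 and 24 lay above all 4 high libraries. Ethanol rats 15 and 23 lay below all 4, and vehicle rat 10 lay between them. The libraries richest in miR-143-3p (ethanol rats 3, 4 and 8) had 98.2, 78.7 and 102 CPM of miR-133a-3p.

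**Figure D4:**
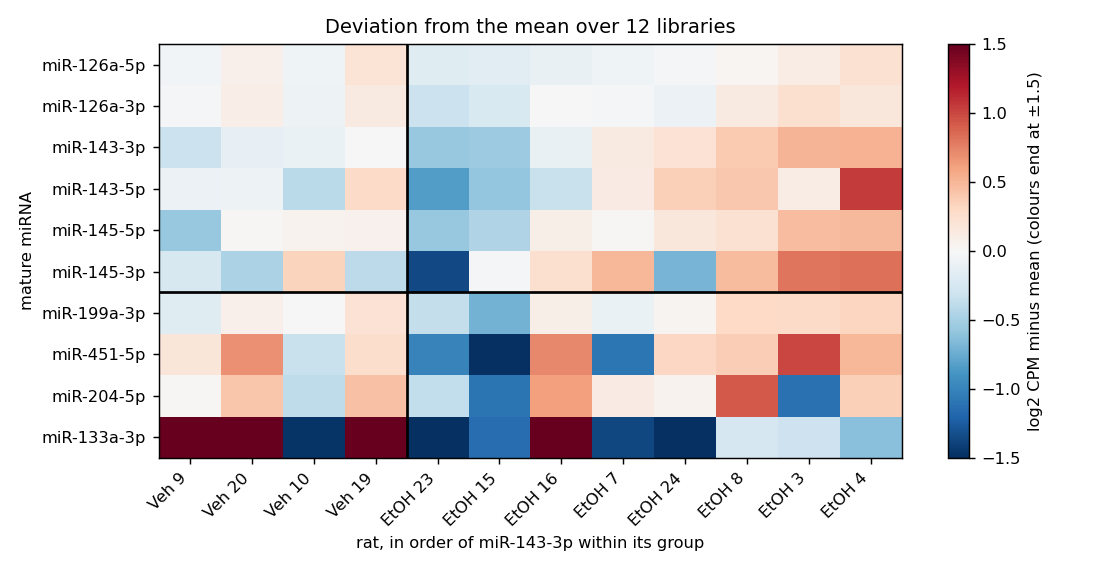
Deviation of log2 CPM from the mean over 12 libraries, for the 6 arms (above the line) and 4 marker miRNAs (below), in rats ordered by miR-143-3p within vehicle (left) and ethanol (right). Red is above and blue below the mean, with colors ending at ±1.5. All 6 arms are below the mean in vehicle rat 9 and ethanol rats 23 and 15 and above it in ethanol rats 8, 3 and 4, and miR-133a-3p does not follow that order.

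The retained miRNAs with profiles most like those of the 3 main arms are given as a description, over the same 12 libraries and 414 miRNAs that are not members. For miR-126a-3p they were miR-199a-5p (r = 0.95), miR-142-5p (0.89), miR-532-5p (0.88), miR-199a-3p (0.87) and miR-450b-5p (0.82). For miR-143-3p they were miR-542-3p (0.93), miR-532-5p (0.88), miR-199a-5p (0.87), miR-199a-3p (0.86) and miR-351-5p (0.85). For miR-145-5p they were miR-532-5p (0.90), miR-542-3p (0.86), miR-199a-3p (0.85), miR-223-3p (0.84) and miR-142-5p (0.82). Of the 414, 22 had r above 0.7 with miR-143-3p, 20 with miR-126a-3p and 11 with miR-145-5p, and the median r was -0.06, -0.06 and -0.07. miR-143-3p and miR-145-5p had r = 0.93 with each other, the highest value for both, and for miR-143-3p that of miR-542-3p was equal to 2 decimals.

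Other miRNAs with roles in vessels were counted in the same fit. This list and those below were chosen with earlier results of these data known. Of 27 named in a list of vascular and angiogenic miRNAs, 24 were in the files and 21 were retained. Of these 21, 0 passed an unadjusted 0.05 either way by edgeR's quasi-likelihood fit, against 4.05% of all 420. Their levels were higher in 15 and lower in 6, against 193 and 227 of all 420, and their median log2 fold change was 0.05, against -0.02. Some of the 21 are arms of the same hairpin (miR-221 and miR-210) or come from a shared cluster, so these are not 21 separate outcomes. The most abundant were miR-27b-3p and miR-27a-3p, which repress the angiogenesis inhibitor Sema6a, at 21962 and 8873 CPM with log2 fold changes of 0.04 and 0.00 (standard errors 0.07 and 0.07).

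Lists for other cell types were summed in each library as CPM of the total count. Fibroblast and meningeal miRNAs (3 of 4 retained, led by miR-199a-3p and miR-199a-5p, with miR-214-5p at 0) ran from 335 to 418 in vehicle and 230 to 479 in ethanol rats, with 0 of 3 at an unadjusted p under 0.05. Blood cell miRNAs (7 of 10 listed retained, led by miR-150-5p and miR-142-5p) ran from 967 to 1127 and from 816 to 1464, with 0 of 7. Choroid plexus miRNAs (5 of 6, led by miR-204-5p and miR-211-5p) ran from 30364 to 52632 and from 17220 to 67297, with 0 of 5. Lower after ethanol were 2 of the 3, 4 of the 7 and 4 of the 5, against 54% of all 420. For each of these 3 lists the range of the vehicle rats lay inside that of the ethanol rats, of which there were more.

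Neuronal miRNAs (6 of 6, led by miR-9a-5p and miR-128-3p) ran from 32901 to 41176 in vehicle and 29728 to 37670 in ethanol rats, with 0 of 6 at an unadjusted p under 0.05. All 6 were lower after ethanol, with a median log2 fold change of -0.08, against 54% lower and a median of -0.02 over all 420. Oligodendrocyte miRNAs (5 of 5, led by miR-338-3p and miR-219a-2-3p) ran from 10045 to 17429 and from 9912 to 19076, with 0 of 5. Of these 5, 4 were higher and 1 lower after ethanol. Striated muscle miRNAs (4 of 12 listed retained, led by miR-133b-3p and miR-133a-3p, with 5 at 0 throughout) ran from 185 to 1917 and from 149 to 1739. All 4 retained were lower after ethanol. Of these 4, 2 had a lower level after ethanol at an unadjusted p under 0.05 (miR-133a-3p and miR-499-5p, adjusted p = 0.971 for both by edgeR's quasi-likelihood fit), against 2.38% of the 420 retained miRNAs lower at that threshold.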

How the data were processed

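Expected counts (estimated read counts) of 753 mature miRNAs were deposited by the authors as 1 table per rat, without scaling; totals ran from 1960704 to 4917928. The submitters' processing notes name cutadapt, Partek and rn5; the counting method and miRNA annotation are not given in the sources used here. Counts were rounded to whole numbers. The study's filter was applied: miRNAs below 10 reads in at least 10 libraries were dropped, and 420 remained. Counts were compared with TMM factors and edgeR 4.0.16's quasi-likelihood test (R 4.3.3) without covariates, adjusted over all 420 miRNAs. Log2 CPM had a prior count of 2, and ratios a pseudocount of 0.5. Exact permutation tests (two-sided, smallest possible p = 0.00202) served single arms and ratios. Exact intervals invert this test and assume a shift between groups of equal spread. limma 3.58.1 and DESeq2 1.42.0 served as alternatives, beside other scalings, filters, unrounded counts, the library total as covariate and each rat left out. The edgeR fit was tested on simulated data. Intervals and floors cover counting error and spread between these rats only. The members and lists were chosen with earlier results of these data known. Named miRNAs were the 6 arms, miR-126b, the 2 most abundant of each list and the 5 most correlated with each main arm; miR-499-5p, miR-214-5p and the single markers were added to these. The study's PCR and plasma measures were not used here.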

Additional observations from a re-analysis of the deposited data

Results flagged for a closer look

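The 6 arms and 6 ratios were looked at within each group for a rat that stood apart. This was so in 1 of 24 groups of values, and chance alone gives about 1.2 (1 in 20). The rat was vehicle rat 9, lowest for miR-145-5p with 7.08 log2 CPM. The remaining 3 vehicle rats lay between 7.66 and 7.71, and the gap to them made up 0.926 of the vehicle range. When vehicle rat 9 was left out, the edgeR log2 fold change of miR-145-5p went from 0.19 to 0.06 and the exact permutation p from 0.455 to 0.933. All 6 arms were below their mean in this rat; the cause was not tested.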

How the results depend on the processing

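No paired analysis was possible because vehicle and ethanol rats share no animal number. None of the 6 arms had an unadjusted p under 0.05 in any of the 25 alternative fits, and the lowest exact permutation p was 0.133. Over all retained miRNAs, 1 passed an adjusted p under 0.05 in DESeq2's Wald test, and 0 to 3 with each rat left out in turn (3 without ethanol rat 16, all of the muscle type: miR-1b, miR-133b-3p, miR-133a-3p; the cause was not tested). With each rat left out, log2 fold changes ranged from -0.070 to 0.026 for miR-126a-3p, from -0.038 to 0.32 for miR-143-5p and from 0.18 to 0.33 for miR-143-3p, and from -0.10 to -0.0074 for miR-126a-5p; the log2 ratio differences ranged from -0.30 to -0.20 for miR-126a-3p over miR-143-3p, from -0.0078 to 0.13 for miR-143-3p over miR-145-5p and from -0.012 to 0.27 for miR-145-3p over miR-145-5p. With the library total as a covariate, the log2 fold change of miR-145-3p was -0.035, that of miR-143-3p went from 0.25 to 0.097 and that of miR-145-5p from 0.19 to 0.072; the cause was not tested. Scaling by library totals, size factors, upper quartile or median, or leaving miR-143-3p out of the totals, changed no sign. Of the 30 relations across libraries, 19 had an adjusted p under 0.05, 11 without the 2 farthest libraries and 1 without the 3 libraries lowest in miR-145-5p, an alternative chosen after seeing the data; both also have fewer libraries. Depth limits mainly miR-143-5p and miR-145-3p.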
